A study of Mus musculus with 4 samples.

Results

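The sites described here are 1131 positions, of 506952 listed in all, that the deposited table labels with a small structured RNA. They were chosen by name alone: a transcript label of a microRNA gene, of a small nucleolar RNA (snoRNA) of the H/ACA (Snora) or C/D (Snord) class, of a small Cajal body RNA (Scarna), or of Rpph1 or Rmrp. The table comes from bisulfite sequencing of poly(A) RNA from cultured mouse AML (acute myeloid leukemia) cells carrying the oncogenes NRAS and AE9a. Per the labels there were 2 wild-type (WT) libraries and 2 without Tet2 (Tet2 KO), the gene of a dioxygenase that oxidises 5-methylcytosine. Cells of both genotypes grew under puromycin (2 µg/ml) and G418 (1 mg/ml), with the cytokines SCF (50 ng/ml), IL-6 (10 ng/ml) and IL-3 (10 ng/ml). Bisulfite turns unmethylated cytosine into uracil and leaves 5-methylcytosine; the level given here is unconverted reads divided by reads used. By its name (uniq, ko) the table may list sites unique to the KO, but it does not show that any site is absent from WT. It has 0 columns of WT values and 0 of individual libraries, and KO was therefore not tested against WT. Nothing in the labels shows that the replicates were separate cultures, and their spread may be technical.

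MicroRNAs are cut from a hairpin in a longer transcript by Drosha and Dicer, and one strand of the hairpin guides Argonaute to mRNAs through its seed, bases 2 to 8. Most mammalian snoRNAs are released from introns of a host gene. C/D snoRNAs guide ribose methylation and H/ACA snoRNAs guide pseudouridylation, mainly of ribosomal RNA. Rpph1 is the RNA of RNase P, which trims the 5′ end of tRNA precursors, and Rmrp is the RNA of RNase MRP, which acts in ribosomal RNA maturation; both are catalytic or core RNAs made by RNA polymerase III and normally carry no poly(A) tail.

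Of the 1131 sites, 201 lay inside the RefSeq span of the RNA they were labelled with (GRCm38, the RefSeq assembly of the mm10 build). The other 930 (82.2%) carried a microRNA label on a chromosome other than the one where RefSeq places that microRNA. In the whole set 184 sites (16.3%) had a call in both KO replicates, against 14.2% of all listed sites, and inside the spans 29 of 201 (14.4%) had one. The median level was 0.512 over the whole set (quartiles 0.357 and 0.7) and 0.545 inside the spans (0.385 and 0.733), against 0.526 over all listed sites. The lowest listed level was 0.2 and the lowest coverage 10 reads, and nothing is known here about positions below these. Median coverage was 17 reads inside the spans, with a range from 10 to 78, and the level at sites with 1 call rested on a median of 12 reads. Most sites were on the plus strand: 95.2% of the whole set and 84.1% inside the spans, against 99.1% of all listed sites. Another listed site stood within 10 nt on the same strand for 777 of the 1131 (68.7%), against 70.3% over the table. Over all RefSeq protein-coding genes 34.2% had a listed site. In myeloid markers 9 of 12 genes had one, in lymphocyte markers 0 of 8, in erythroid markers 0 of 5 and in pancreatic islet hormone genes 6 of 6 (593 sites in all); the part of islet RNA in any result was not tested.

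The microRNA labels found away from their locus were 15 in number and marked long blocks of other genes. Mir8115, which RefSeq places on chromosome 5 in a span of 119 nt, labelled 292 sites on chromosome 11 between 86684018 and 87250729, a distance of 567 kb. These included all 174 listed sites of the ubiquitin ligase gene Trim37, all 44 of Ska2, which encodes a spindle and kinetochore protein, all 12 of Ptrh2, and 62 with no other label. Mir5098, placed by RefSeq on chromosome 5, labelled 281 sites on chromosome 2 over 469 kb, among them all 133 in the integrin gene Itga6, all 71 in Metap1d, 38 of 48 in the histone acetyltransferase gene Hat1 and 37 of 131 in Pdk1, which encodes a pyruvate dehydrogenase kinase. Those 2 labels made up 573 of the 930 sites.

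Mir6989 labelled 116 sites on chromosome 11, of which 72 were in Havcr2, the gene of the immune checkpoint receptor TIM-3, and 38 in the Mediator subunit gene Med7. Mir1198 labelled 58 sites on chromosome 12, shared with the proteasome gene Psma6 (36) and 1110008L16Rik (22). Mir466o labelled 55 sites, Mir1946b 49, Mir467c 46 and Mir466f-2 11. For each of these 8 labels, every site listed on the same strand between the first and the last labelled position carried the label. The 8 labels had median levels from 0.5 to 0.6, and the blocks ran from 7.45 to 567 kb. The other 7 labels, among them Mir1195 with 8 sites and Mir3098 with 6, held 22 sites, all on the minus strand. Over all 15 labels, 23 genes shared one, and in 18 of them all of the gene's listed sites had it. Mir1195 had a median level of 0.236 and Mir3098 of 0.25, against 0.231 for all minus-strand sites of the table. Among the microRNA-labelled sites at the top level of 1 were 3 with over 20 covering reads in these blocks: 11 of 11 reads unconverted at 87123616 on chromosome 11 (label Mir8115; Wilson 95% interval 0.741 to 1), 11 of 11 at 70453213 on chromosome 12 (Mir466o with the thioredoxin-related gene Tmx1) and 10 of 10 at 71857062 on chromosome 2 (Mir5098 with Itga6; 0.722 to 1).

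**Figure D1:**
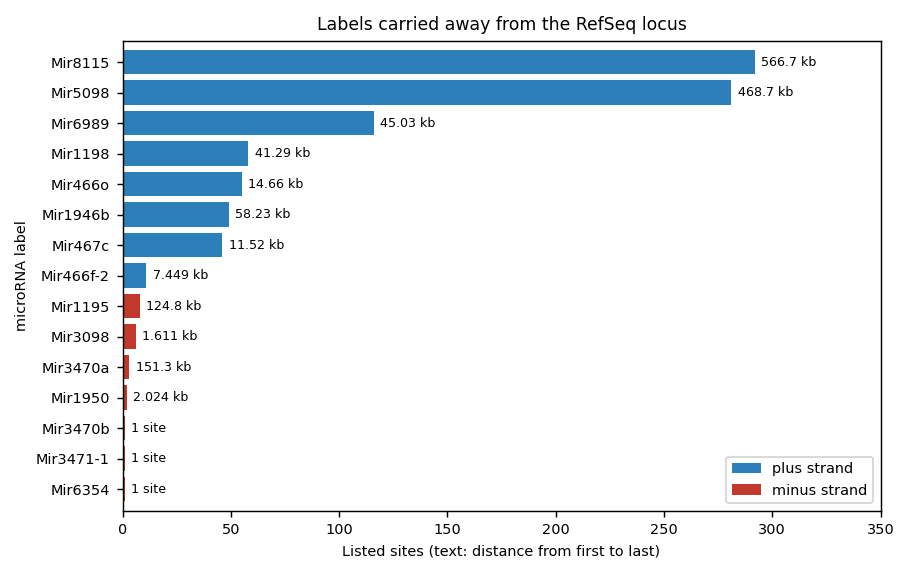
Number of listed sites (bars) for the 15 microRNA labels found on another chromosome than the RefSeq locus, coloured by strand, with the distance from first to last site in text. Mir8115 (292 sites) and Mir5098 (281) lead; no such hairpin is longer than 133 nt in RefSeq.

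The hairpins that matter for the rest are shown first, so that the listed positions can be read in their sequence. They are those of Mir223 and the miR-17-92 cluster, which are well known in blood cells, of the paralogous Mir23 and Mir24 copies, and of Mir6516, which had 2 sites called in both replicates. They were picked after their values were seen. Sequences are RefSeq's (GRCm38), 5′ to 3′, on the plus strand, and capitals mark the listed positions.
Mir223, chrX:96242817-96242926: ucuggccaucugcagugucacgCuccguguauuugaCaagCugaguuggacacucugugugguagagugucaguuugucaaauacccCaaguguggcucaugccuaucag
Mir24-2, chr8:84208815-84208921: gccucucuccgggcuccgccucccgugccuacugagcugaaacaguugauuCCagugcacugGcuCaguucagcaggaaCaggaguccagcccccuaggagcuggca
Mir24-1, chr13:63301208-63301275: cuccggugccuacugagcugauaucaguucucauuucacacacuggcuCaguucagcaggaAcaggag
Mir23a, chr8:84208518-84208592: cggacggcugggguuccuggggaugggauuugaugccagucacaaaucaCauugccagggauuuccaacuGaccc
Mir23b, chr13:63300484-63300557: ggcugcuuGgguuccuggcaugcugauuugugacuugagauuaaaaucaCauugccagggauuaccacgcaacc
Mir17, chr14:115043671-115043754: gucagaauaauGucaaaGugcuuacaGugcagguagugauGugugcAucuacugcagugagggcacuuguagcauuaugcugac
Mir18, chr14:115043851-115043946: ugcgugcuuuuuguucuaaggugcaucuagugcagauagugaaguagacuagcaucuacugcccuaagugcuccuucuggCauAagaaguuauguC
Mir19b-1, chr14:115044305-115044391: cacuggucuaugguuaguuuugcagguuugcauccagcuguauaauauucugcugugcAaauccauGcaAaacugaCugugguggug
Mir92-1, chr14:115044427-115044506: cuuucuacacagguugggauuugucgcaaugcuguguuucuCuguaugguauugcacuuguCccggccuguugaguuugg
Mir6516, chr11:117077348-117077457: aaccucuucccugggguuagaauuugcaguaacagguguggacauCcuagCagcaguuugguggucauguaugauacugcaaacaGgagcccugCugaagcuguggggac

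Many of the capitals in these hairpins are not cytosines. A hairpin sequence was given for 38 of the 40 microRNAs with sites inside their span, covering 83 sites. The RNA base in GRCm38 was cytosine at 44 of these (53.0%, Clopper-Pearson interval 41.7 to 64.1), guanine at 28, adenine at 11 and uracil at 0. Of all 3222 bases of these hairpins 27.3% were cytosine, 30.2% guanine, 18.8% adenine and 23.7% uracil. In 13 of the 38 hairpins every listed position was a cytosine, in 14 none was, and 11 held both kinds. The same reading was made over the table. Among 5942 plus-strand sites in RefSeq windows around gene starts, the base was cytosine at 3084 (51.9%), guanine at 1783, adenine at 1075 and uracil at 0. Of the 847 of these with a call in both replicates, 581 (68.6%, interval 65.4 to 71.7) were at cytosine. In the hairpins 8 of 15 such sites were (53.3%), and the wide interval, 26.6 to 78.7, includes 68.6%. On the minus strand the base was cytosine at 130 of 144 (90.3%). A level at a guanine or an adenine of the reference is the authors' value at that position and is not the level of a reference cytosine. What these positions have in common was not tested, and differences between these cells' genome and GRCm38 were not analysed here.

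Sites at cytosines and at other bases had overlapping levels. The 44 cytosines had a median level of 0.510 (quartiles 0.4 and 0.803) and the other 39 positions one of 0.623 (0.459 and 0.785). Calls in both replicates were 8 of 44 and 7 of 39. The share of covering reads that entered the level differed: at sites with 1 call its median was 62.5% at cytosines and 84.6% at the other positions. The listed cytosines were 4.99% of the 881 cytosines of these hairpins.

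**Figure D2:**
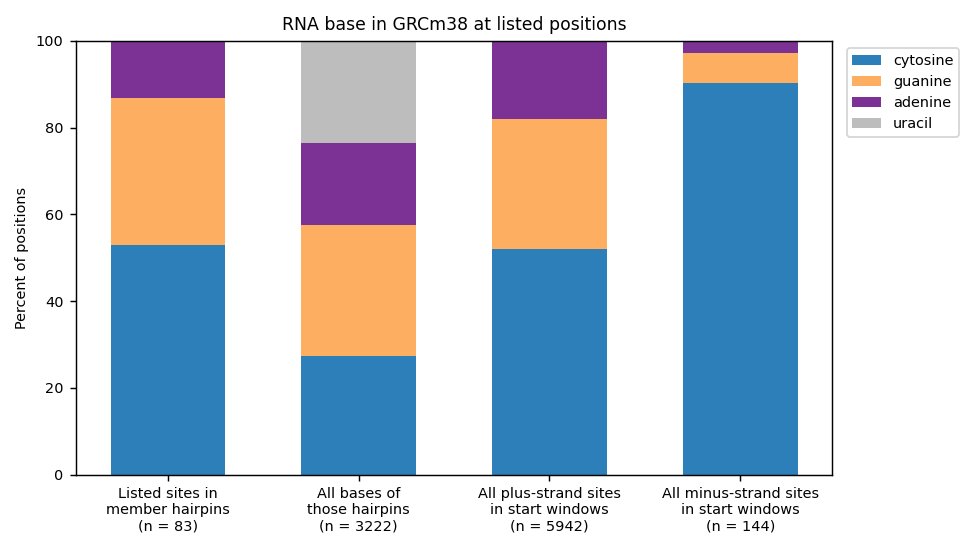
Percent of positions (y axis) by the RNA base in GRCm38, for listed sites in member hairpins, all bases of those hairpins, and all listed sites of each strand in windows around gene starts. Cytosine makes up 53.0% of the listed hairpin positions and 90.3% of the minus-strand sites, and uracil is at 0 among listed sites in each set.

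Along the hairpins, the share of sites in each zone lay near that zone's share of bases. The seed bases of RefSeq's mature microRNAs held 12 of the 83 sites (14.5%) and 13.5% of the bases. The remainder of the mature arms held 25 sites (30.1%) and 28.4% of the bases, and bases outside the mature sequences of RefSeq's table held 46 (55.4%) and 58.2%. Cytosines were 6, 12 and 26 of these sites. The zones follow the mature sequences that RefSeq gave. For Mir23b that was miR-23b-5p only, so its cytosine at hairpin position 50 counts as outside. Mature sequences from the Mir223, Mir23, Mir24, Mir27b and miR-17-92 hairpins are given with the seed in capitals, so that the positions named later can be read in them; the sites of Mir18 lie outside the miR-18a-5p shown. No 2 of those shown share a seed.
mmu-miR-223-5p: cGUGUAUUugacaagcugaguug
mmu-miR-223-3p: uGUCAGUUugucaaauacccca
mmu-miR-24-3p: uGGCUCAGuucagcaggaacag
mmu-miR-23a-3p: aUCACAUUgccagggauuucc
mmu-miR-27b-3p: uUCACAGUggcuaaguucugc
mmu-miR-17-5p: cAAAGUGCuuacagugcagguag
mmu-miR-18a-5p: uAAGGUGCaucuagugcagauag
mmu-miR-19b-3p: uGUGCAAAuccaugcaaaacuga
mmu-miR-92a-3p: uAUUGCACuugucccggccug

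**Figure D3:**
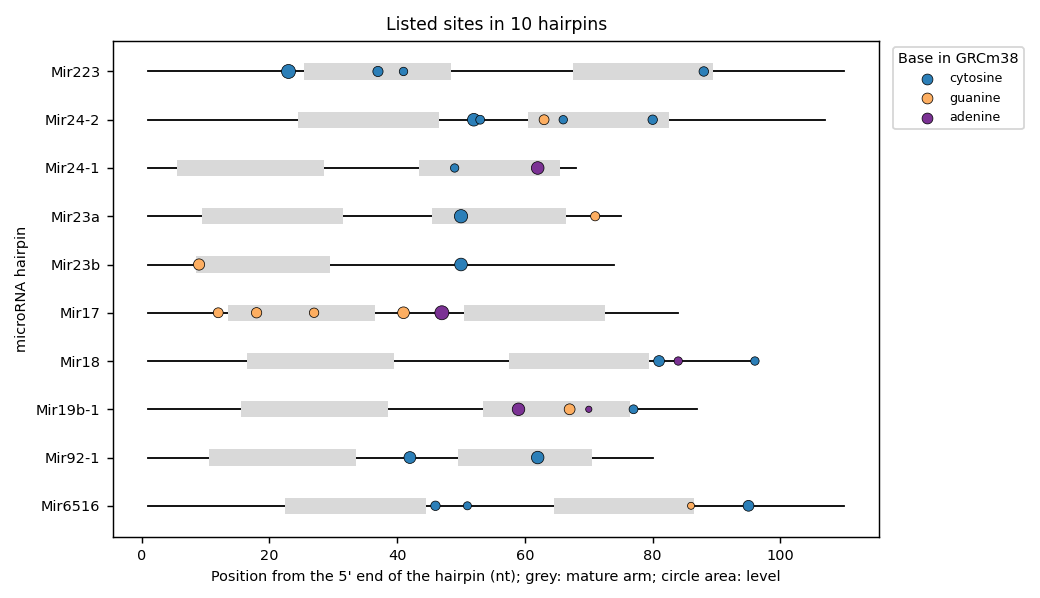
Listed sites in the 10 hairpins printed above, by position from the 5′ end (x axis, nt), with mature arms in grey, circle area in proportion to the level and colour for the base in GRCm38. All 4 sites of Mir223 are cytosines, whereas all 5 of Mir17 are guanine or adenine.

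Mir223, a microRNA of granulocytes and their precursors, had 4 sites on chromosome X, all at cytosines and all also labelled with its long non-coding host F630028O10Rik. Position 96242839, just before the 5p arm, was unconverted in 10 of 10 reads used (Wilson interval 0.722 to 1). Base 12 of miR-223-5p, at 96242853, was called in both replicates, with a mean level of 0.532 ± 0.238 (SD, n = 2). Base 16 of the same arm kept 4 of 11 reads (level 0.364) and base 21 of miR-223-3p 6 of 13 (0.462, interval 0.232 to 0.709). The interval of the first site does not overlap those of the last 2. These intervals cover counting error only, and the calls may come from different libraries. The host had 43 listed sites in all, with a median level of 0.385.

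The Mir23 and Mir24 copies on chromosomes 8 and 13 shared listed positions. Both Mir24 copies make the same miR-24-3p, and base 6 of it, a cytosine in the seed, was listed in each. Its level was 0.358 ± 0.0820 (SD, n = 2) in Mir24-1 and 0.364 from 4 of 11 reads in Mir24-2 (interval 0.152 to 0.646). Around that base the hairpins agree over 28 bases, cacuggcuCaguucagcaggaacaggag, with the listed cytosine in capitals. The Mir23 copies agree over 20 bases around hairpin position 50, aaaucaCauugccagggauu, which in Mir23a is base 5 of miR-23a-3p. There 9 of 10 reads were unconverted in Mir23a (0.9, interval 0.596 to 0.982) and 9 of 11 in Mir23b (0.818, interval 0.523 to 0.949). The intervals of the Mir23 pair overlap, and the Mir24 values differ by less than the replicate SD. No source used here says how reads matching both copies were placed, so the copies may not be separate measurements. These hairpins also had guanine or adenine positions listed: 0.643 at base 1 of miR-23b-5p, 0.5 at base 3 of miR-24-3p in Mir24-2, 0.429 in the 3′ flank of Mir23a and 0.818 at base 19 of miR-24-3p in Mir24-1. Mir24-2 had 3 further cytosines, at 0.818 and 0.4 in the loop and 0.455 at base 20 of miR-24-3p. The Mir27b hairpin, between Mir23b and Mir24-1, had 1 site, an adenine at base 4 of miR-27b-3p (0.5). The Mir23b group lies in 2010111I01Rik (Aopep), an aminopeptidase gene with 394 listed sites.

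The miR-17-92 cluster, an oncogenic group of microRNAs cut from one transcript on chromosome 14, had 14 sites in 4 of its hairpins. Mir17 had 5, of which 4 were at guanine and 1 at adenine; their levels were 0.455, 0.5, 0.545, 0.7 ± 0.141 (SD, n = 2) and 1, the last from 11 of 11 reads. Mir18 had 3, with 0.357 at an adenine and 0.364 and 0.6 at cytosines, all after its mature arms. Mir19b-1 had 4, of which 3 were in miR-19b-3p at adenine or guanine (0.2, 0.6 and 0.8), and 1 was the cytosine just after it (0.4). Mir92-1 had 2, both at cytosines: one in the loop at 0.717 ± 0.243 (SD, n = 2), and base 13 of miR-92a-3p, where 8 of 10 reads were unconverted (interval 0.490 to 0.943). Of the 14 sites 5 were thus cytosines. Coverage of the 14 ran from 10 to 25 reads, so single levels have wide intervals.

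Further microRNAs with a call in both replicates were Mir546, Mir6516, Mir7051, Mir761, Mir7648, Mir7654, Mir8094 and Mir8112. Mir546, in the phosphatase gene Ctdsp2, had the most sites inside a hairpin, 10 between 126998502 and 126998537 on chromosome 10, all after its mature sequence and 7 at cytosines. Their levels ran from 0.286 to 0.917, and the 3 sites called in both replicates had 0.303 ± 0.0750, 0.379 ± 0.0311 and 0.519 ± 0.0269 (SD, n = 2). The first 2 of these 3 were at adenines and the last at a cytosine. Mir6516, in Snhg20, had 3 cytosines at 0.331 ± 0.185, 0.455 and 0.596 ± 0.136 (SD, n = 2, for the first and last) and a guanine at 0.25. Mir761, in the protease gene Nrd1, had the 4 levels 0.842, 0.857, 0.962 ± 0.0537 (SD, n = 2) and 1, of which the one called in both replicates was at a cytosine. The remaining 5 had doubly called sites at 0.229 ± 0.00424 (Mir7654, a cytosine on the minus strand with 78 covering reads), 0.465 ± 0.0509 (Mir8094), 0.623 ± 0.0339 (Mir7648), 0.678 ± 0.0156 (Mir8112) and 0.748 ± 0.0297 (Mir7051; SD, n = 2 for all). The last 4 of these were at guanines. No let-7 label had a site, and whether these RNAs reached the lowest listed coverage is not known.

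H/ACA snoRNAs had 53 sites in 16 RNAs, of 39 in RefSeq (41.0%), and C/D snoRNAs 28 sites in 11 RNAs of 94 (11.7%). Small Cajal body RNAs had 0 sites in 9 genes, and microRNAs had sites inside the hairpin gene span in 40 of 1180 (3.39%). Over all RefSeq genes the share was 34.2% for protein-coding and 1.28% for long non-coding genes. The class totals count genes of both strands, whereas 99.1% of all listed sites were on the plus strand. RNAs without a site may also have lacked the coverage to be listed. The median level was 0.525 (quartiles 0.364 and 0.8) for H/ACA, 0.593 (0.4 and 0.696) for C/D and 0.598 (0.415 and 0.777) for microRNA sites inside their span; the ranges within a class were far wider than the gaps between medians. Calls in both replicates were 3 of 53 for H/ACA (5.66%, interval 1.18 to 15.7). For C/D they were 6 of 28 (21.4%, interval 8.30 to 41.0), of which 4 were in Snord57. Over the table the share was 14.2%. Sites of 1 RNA can share reads, and the intervals treat them as separate. No sequence of the snoRNAs, Rpph1 or Rmrp was used here, so the base at their listed positions is not given. Among plus-strand sites around gene starts 51.9% were at cytosine, so listed snoRNA positions may not all be cytosines.

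**Figure D4:**
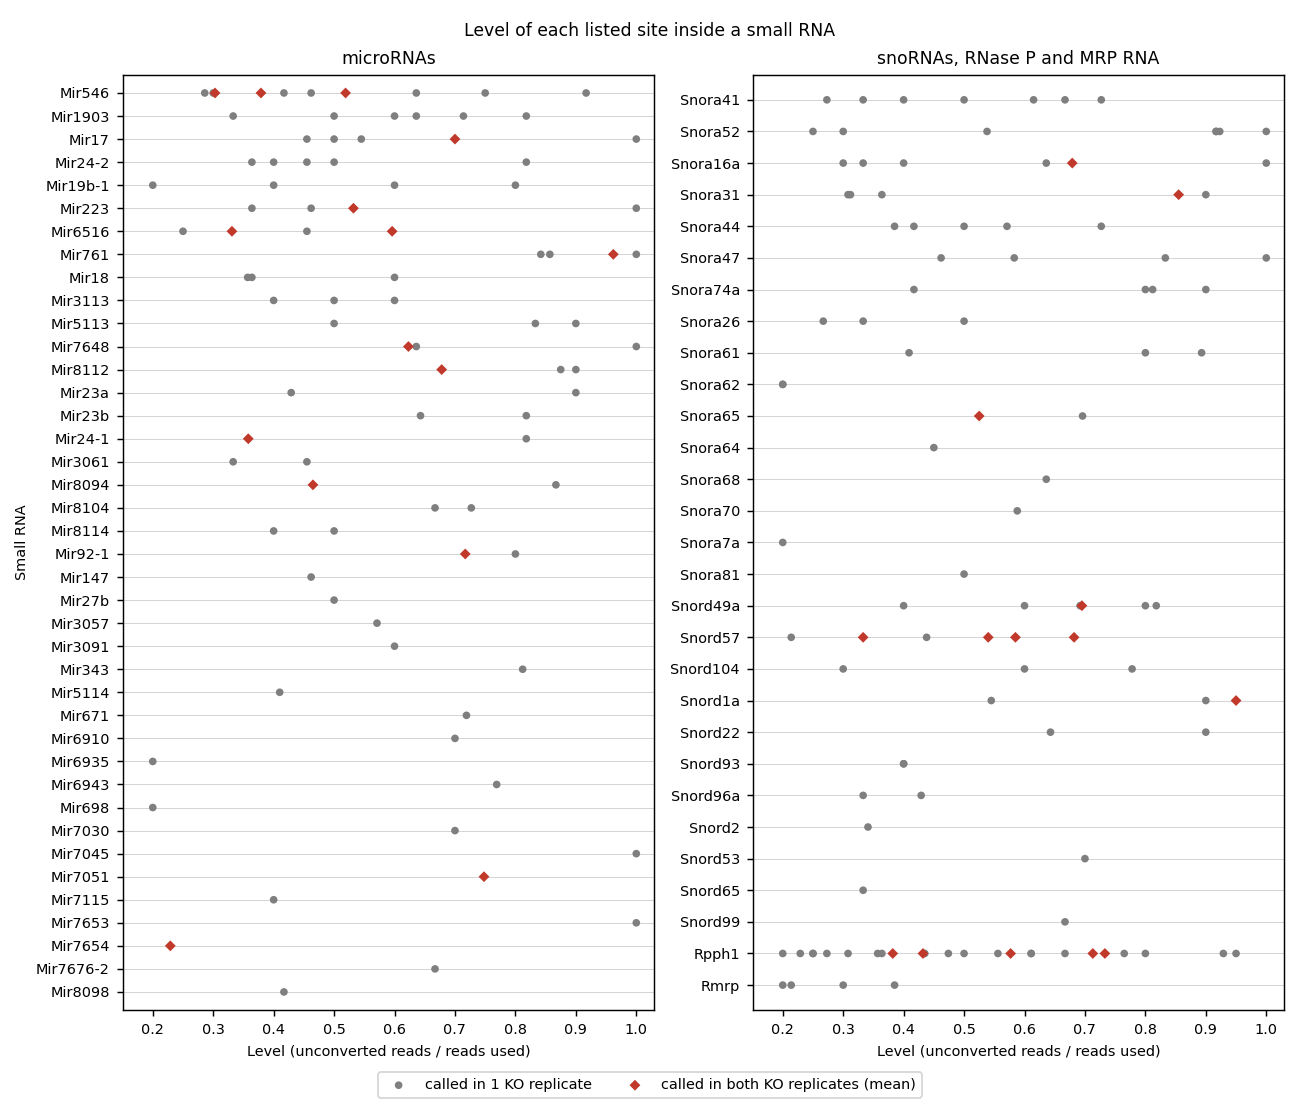
Level (x axis) of each of the 201 listed sites inside a small RNA (rows), as grey circles for a call in 1 KO replicate and red diamonds for the mean of both. Levels run from 0.2 to 1 over all RNAs, and 28 of the 69 RNAs have 1 site only. Rmrp, on the minus strand, stays at 0.385 or below, and all minus-strand sites of the table had a median of 0.231.

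Among H/ACA snoRNAs, Snora41 and Snora52 had the most sites, 7 each. Snora41, at 63179023 to 63179135 on chromosome 1 in the translation elongation factor gene Eef1b2, had levels from 0.273 (3 of 11 reads) to 0.727 (8 of 11), and 5 of its sites stood within 8 nt. Snora52, at 141448803 to 141448936 on chromosome 7 in the ribosomal protein gene Rplp2, had a median level of 0.917, against 0.615 over all 61 sites of its host. Its first listed base kept 10 of 10 reads, the next 12 of 13, and its last 3 of 12 (interval 0.0889 to 0.532). The first 2 intervals, 0.722 to 1 and 0.667 to 0.986, do not overlap that of the last. These sites were picked after their values were seen, and their calls may come from different libraries. All 14 sites of these 2 RNAs were called in 1 replicate.

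Snora16a had 6 sites, with 0.679 ± 0.0608 (SD, n = 2) at the one called in both replicates and 11 of 11 reads unconverted at another. It is 1 of 4 snoRNAs in the long non-coding host Snhg12 on chromosome 4 that had sites, with Snora44 (5), Snora61 (3) and the C/D snoRNA Snord99 (1). Together they held 15 of the 73 listed sites of Snhg12. Their median was 0.571, against 0.5 over the host. In Snora61, 25 of 28 reads were unconverted at 132310352 (0.893, interval 0.728 to 0.963). At the site 10 nt further on it was 9 of 22 (0.409, interval 0.233 to 0.613). These intervals do not overlap, but they cover counting error only, and the calls may come from different libraries. Snora31, in Tpt1, the gene of translationally controlled tumor protein, had 5 sites in 2 separate ranges: 0.9 and 0.855 ± 0.0764 (SD, n = 2), and 0.308, 0.312 and 0.364. Snora65, in Rpl12, had 0.696 from 16 of 23 reads and 0.525 ± 0.318 (SD, n = 2), a site at which the replicates differed widely. Sites in Snora62 (0.2 at both of its sites, host Rpsa) and Snora7a (0.2, host Rpl32, minus strand) were at the lowest listed level. Each of these levels rested on 2 of 10 reads used, of 32 to 40 covering. Of all 4761 minus-strand sites of the table, 1698 were at 0.2.

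Among C/D snoRNAs, Snord57 and Snord49a had 6 sites each, in RNAs of 63 and 62 nt. Snord57 lies on chromosome 2 (130278026 to 130278088) in Nop56, which encodes a core protein of C/D snoRNPs, and 4 of its 6 sites were called in both replicates. Those 4 had mean levels of 0.54 ± 0.265, 0.585 ± 0.0212, 0.682 ± 0.0962 and 0.333 ± 0 (SD, n = 2). The first of them varied most between replicates. The other 2 sites had 0.438 and 0.214. Snord49a, in the non-coding host 2410006H16Rik on chromosome 11, had levels of 0.4, 0.6, 0.692, 0.8 and 0.818 and a doubly called site at 0.695 ± 0.195 (SD, n = 2). Snord1a, in 1810032O08Rik (Snhg16), was unconverted at 0.95 ± 0.0707 (SD, n = 2) at its first base and in 18 of 20 reads at 116674628 (0.9, interval 0.699 to 0.972). Snord104, with no host label, had 0.3, 0.6 and 0.778 (14 of 18 reads, interval 0.548 to 0.910).

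Most small RNAs with sites shared their label with a host. Of the 69 RNAs with a site inside their span, 45 lay in 42 protein-coding hosts (100 sites), 14 in 10 long non-coding hosts (46 sites), and 10 had no other label (55 sites). Median levels were 0.584 in coding and 0.584 in non-coding hosts, and 0.474 without a host label, where Rpph1 and Rmrp supplied 28 of the sites. Of all 69 RNAs, 52 had more listed sites per 100 nt than the 500 nt on either side on the same strand, with medians of 1.98 and 1.3. Among the 41 with at least 2 sites it was 36, with medians of 3.66 and 1.3. An RNA enters this count only through its own sites, so a higher density than its flank is partly set by that choice. Whether a site belongs to the small RNA itself or to host RNA that holds its sequence was not tested, and exons and introns of the hosts were not analysed here.

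Rpph1 had the most sites of any RNA inside its own span. It had 24, on the minus strand of chromosome 14 between 50807452 and 50807657, in a gene from 50807447 to 50807771 of 325 nt. Among 2050 minus-strand labels, whose median was 1 site, only Gcg (228) and Ins2 (139) had more, and Sst had as many. In the 500 nt on either side of Rpph1 there were 0 listed sites on its strand. Calls in both replicates were 5 of 24 (20.8%, interval 7.13 to 42.2), against 10.9% of all minus-strand sites. The interval treats these sites as separate, though 1 read can cover several.

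The sites of Rpph1 fell in 2 zones along the RNA, a division made after the values were seen. In the last 50 nt there were 17 sites, with a median level of 0.611 (quartiles 0.474 and 0.733). At position 309 from the 5′ end 19 of 20 reads used were unconverted (0.95, interval 0.764 to 0.991), at 300 it was 13 of 14 (0.929) and at 312 13 of 17 (0.765). The lowest, at 320, kept 2 of 10. All 5 sites with a call in both replicates were in this zone, with 0.577 ± 0.0453, 0.432 ± 0.0325, 0.382 ± 0.0255, 0.733 ± 0.00849 and 0.713 ± 0.109 at positions 279, 281, 284, 285 and 305 (SD, n = 2). Positions 284 and 285, the only adjacent pair among these 5, stood at 0.382 and 0.733, further apart than their replicate SDs. An SD from n = 2 is a weak yardstick for levels from few reads.

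The other 7 sites of Rpph1 lay between positions 115 and 224 and had levels from 0.229 to 0.364, with a median of 0.273. Over all minus-strand sites of the table the median was 0.231 (quartiles 0.2 and 0.3). The deepest of them kept 8 of 35 reads used, of 66 covering (0.229, interval 0.121 to 0.390). Of the 17 sites in the last 50 nt, 16 had a level above the highest of these 7. The sites in the last 50 nt, covered by 18 to 32 reads, lie so close together that one read can cover several, and they are not independent measurements. At the sites of Rpph1 with 1 call a median of 55.6% of the covering reads entered the level, against 82.6% over the table and 50.0% over minus-strand sites.

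Rmrp had 4 sites on the minus strand of chromosome 4, within 43492785 to 43493059, and 0 in both replicates. The first 3 stood at positions 99, 101 and 109 from the 5′ end, with 3 of 10, 5 of 13 and 4 of 20 reads unconverted (0.3, 0.385 and 0.2), and the last at 256 with 6 of 28 (0.214, interval 0.102 to 0.395). Their intervals overlap one another, and their median level was 0.257, against 0.231 over all minus-strand sites of the table. The highest, 0.385 (interval 0.177 to 0.645), lay above all 7 sites of the 5′ zone of Rpph1, with an overlapping interval.

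**Figure D5:**
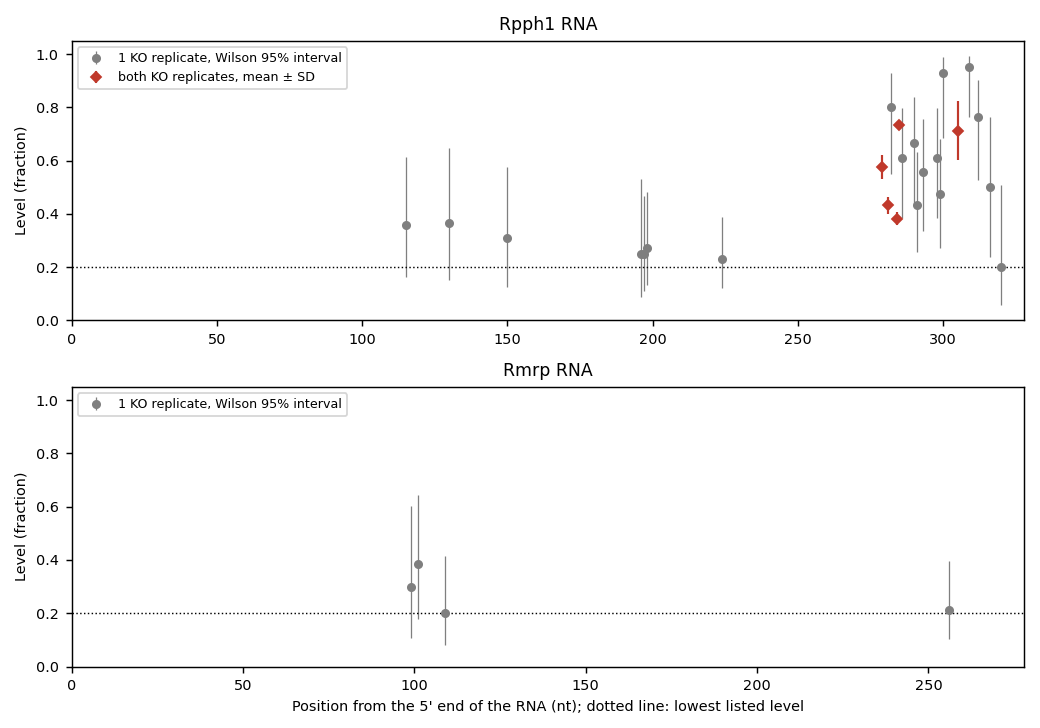
Level (y axis) by position from the 5′ end (x axis, nt) in Rpph1 and Rmrp, with Wilson 95% intervals for calls in 1 KO replicate (grey) and mean ± SD for both (red). In Rpph1 the 17 sites of the last 50 nt have a median of 0.611, against 0.273 for the 7 before them and 0.231 for all minus-strand sites of the table.

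Genes of the pathways that make these RNAs also had listed sites. Of 18 microRNA biogenesis and effector genes 14 had a site, against 34.2% of protein-coding genes. The GW182 genes led, with Tnrc6b (301 sites, median level 0.5), Tnrc6a (289, 0.5) and Tnrc6c (220, 0.592). Dicer1, Ago1, Ago2, Ago4, Prkra, Ddx5 and Ddx17 had only 1 to 5 sites each. Their median levels ran from 0.2 to 0.25, with 0 calls in both replicates. Over all minus-strand sites of the table the median level was 0.231, against 0.531 on the plus strand. The strand of the sites in these genes is not given here. Whether strand accounts for their distance from the GW182 genes was not tested. Of 16 snoRNP core and assembly genes 11 had one, led by Nop56 (144), Nolc1 (126) and Coil (121). Of 10 protein subunits of RNase P and MRP 5 had one, led by Pop1 (150), Rpp14 (59) and Pop5 (30). Of 17 non-coding genes in the host list, in which Rpph1 and Rmrp count themselves, 12 had one, against 1.28% of RefSeq long non-coding genes. Snhg16 (83), Gas5 (76) and Snhg12 (73) led. The 12 of 17 and the 1.28% are shares of unlike sets. The list was picked by name, whereas the 1.28% covers all 12731 RefSeq long non-coding genes. The share in the list is also partly set by the choice, as Rpph1 and Rmrp are among the RNAs described here. Sites of small RNAs inside Snhg1, Snhg4, Snhg12, Snhg16 and Snhg20 also count for these hosts. Expression was not measured here, and 2050 labels had sites on the minus strand, with a median of 1 site each.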

How the data were processed

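Per the submitters' processing notes the build was mm10. No source used here names the aligner or the site caller. The deposited table holds 1 line per position. Its read numbers, per the file headers, are means over the KO replicates with a call, rounded by the authors, and were treated as a score; with 1 call they are reads of 1 library. The authors' level is a fraction of the reads used. The combined p-value for the methylation state was computed by the authors and was at most 0.000114. The number of calling replicates is a deposited column. Normalized read numbers were deposited and not used.

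Reads used were recovered as unconverted reads over the level, a whole number in 100% of sites with 1 call (tolerance 0.0006). The deposited SD was read as a population SD, because 83.1% of 8755 shallow sites called in both replicates then gave whole reads, against 6.23% otherwise, and was converted to a sample SD. All 85 labels matched a RefSeq symbol; 1 site had 2 labels and was given to the RNA whose span held it, leaving 84 RNAs. RefSeq sequences gave the base at a position, complemented on the minus strand. Python 3.11.15, pandas 2.3.3 and SciPy 1.17.1 were used. Wilson and Clopper-Pearson intervals (95%) cover counting error only.

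The planned test of KO against WT could not be made. Named were, per class, the 4 RNAs with the most sites, the 3 highest sites at 20 or more covering reads, all RNAs with a call in both replicates, let-7, Rpph1 and Rmrp, and the 3 genes with the most sites in each pathway list; printed hairpins and other named RNAs were chosen after their values were seen. Members and lists were chosen with earlier results of these data known.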

Additional observations from a re-analysis of the deposited data

How the results depend on the processing

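No paired analysis was possible because the table holds no single-library columns, and for the same reason no replicate could be left out. Of 61 recomputed values, 34 moved by less than the replicate SD of 0.0707 (levels), the binomial interval (shares) or 1.5 times (counts). The number of sites, 1131, became 489 and 224 at 20 and 30 covering reads, 186 at 20 reads used, 184 with both replicates, 354 outside runs (no other site within 10 nt), 201 inside the spans and 177 without Rpph1. The number of RNAs, 84, became 50, 28, 23 and 27 under the first 4 of these. The median level, 0.512, was 0.440 at 30 reads. The plus-strand share, 95.2%, was 90.8% and 88.0% at 20 and 30 reads, 93.8% outside runs, 84.1% inside the spans and 96.7% at a combined p of 1e-06 or less. The share in both replicates, 16.3%, was 21.9% and 18.8% at 20 and 30 covering reads, 10.2% at 20 reads used, 11.6% outside runs and 13.6% inside the spans without Rpph1. The microRNA median, 0.51, was 0.598 inside the spans. The H/ACA median, 0.525, was 0.2 over 5 sites at 30 reads and 0.679 over 3 sites in both replicates. The C/D median, 0.593, was 0.512 over 6 sites at 30 reads and 0.415 over 12 outside runs. The number of sites was smaller under each limit, and the cause of these shifts was not tested. The share of cytosines among hairpin positions was 53.3% in both replicates, against 53.0%. The runs without Rpph1 and by base were chosen after seeing the data. Coverage near the minimum of 10 reads limits single levels.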
